A study of Mus musculus with 70 samples.

Results

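This comparison set female livers carrying the OpnKI Mye alleles against female livers with Lyz2.Cre+/+ alone, after 24 weeks on a control diet. OpnKI Mye, called KI here, is named for an osteopontin knock-in of myeloid cells, and Lyz2.Cre+/+, called WT in the sample titles and here, carries the Cre transgene without it. The members are 8 of the 70 RNA-seq libraries of the series, 4 KI and 4 WT, chosen as the control diet groups of the female liver count table. Each library came from total liver lysate. The labels state the Cre zygosity for WT alone, give no age of the animals beyond the weeks on the diet, and do not say whether each library is a separate animal, so that p-values measure the spread between these samples. The groups used for side comparisons were female liver of KI and WT after 24 weeks on a NASH (nonalcoholic steatohepatitis) diet, with 4 libraries each, and male liver of KI and WT on the control diet. Male KI had 4 libraries and male WT 3, after replicates 3 and 4 were counted as 1 sample because their counts differed by less than sampling noise. Sorted liver resident macrophages of females on the control diet, 4 KI and 4 WT libraries, were used for the check of the transgene.

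Osteopontin, the product of Spp1, is a secreted phosphoprotein that binds integrins and CD44, and it acts as a cytokine and as a matrix protein. In the healthy liver it is made mainly by bile duct cells, and macrophages make it in injury. Cre expressed from the Lyz2 locus is active in monocytes, macrophages and neutrophils, and an insertion there disrupts the lysozyme M reading frame. Hepatocytes make up most of the liver by mass, so that most transcripts read here come from cells outside the myeloid lineage. In bulk tissue, fewer cells of a type and less RNA per cell cannot be told apart.

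The KI libraries held 19987338 to 21871494 counts over 24982 gene rows, and the WT libraries 20917438 to 21849341. The 10 most abundant genes took 19.3 to 24.4% of the counts in KI and 19.3 to 20.6% in WT. Xist, the X-inactivation RNA of female cells, had 975.4 to 1134 CPM (counts scaled to a common library size) in KI and 798 to 1332 CPM in WT, and 4 Y-linked genes had at most 1 count in any of the 8. The liver label held: Alb, the serum albumin gene, read 71392 to 120335 CPM in KI, against 77579 to 94471 CPM in WT. Some libraries of the side comparisons stood apart. On the first principal component (27.11% of the variance) of the 16 female livers, the 4 KI control libraries scored -27.7 to -42.8 and the WT control libraries 3.4 to 23.4. WT NASH replicates 3 and 4 scored -29.3 and -19.0, on the side of the KI control libraries, while WT NASH replicates 1 and 2 scored 31.6 and 28.4. On the second component (13.48%) WT NASH replicates 3 and 4 scored -34.9 and -38.6, apart from the KI control libraries at -3.96 to 27.96. Among the male livers, the WT sample merged from replicates 3 and 4 had 488 CPM of Xist and 0.317 CPM of the Y-linked Ddx3y, against its male label. Counts of called genes for the diet and sex comparisons are given with and without those libraries.

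Over 13315 genes that passed the filter on low counts, 1008 differed between KI and WT on the control diet at an adjusted p under 0.05, which is 7.57% of those tested. The changes were split almost evenly, with 538 genes higher in KI (4.04%) and 470 lower (3.53%), and the median log2 fold change over all genes was 0.009. Here and below, the test is edgeR's quasi-likelihood test with Benjamini-Hochberg adjustment over all genes tested, a gene is said to rise or fall where it passed this threshold, and fold changes are KI over WT. All 4 KI values lay above every WT value in 1112 genes (8.35%) and below every WT value in 1080 (8.11%). Of the called genes, 86 had a mean of at least 1 CPM in the higher group and a log2 change beyond 2 in size, and 66 of these were higher in KI. In fits that left out 1 of the 16 female liver libraries the count ran from 393 to 1179. It was 651, 488 and 503 without KI replicate 2, 3 or 4 and 393, 395 and 510 without WT replicate 1, 3 or 4. None of the 82 called genes named by rule changed sign in these fits. The fits that left out a NASH library kept all 8 control diet libraries compared. A tally over the 16 fits therefore understates how often a call was lost when a compared library was left out. The share of tested genes called ran from 2.71% on the X chromosome to 9.84% on chromosome 17.

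**Figure D1:**
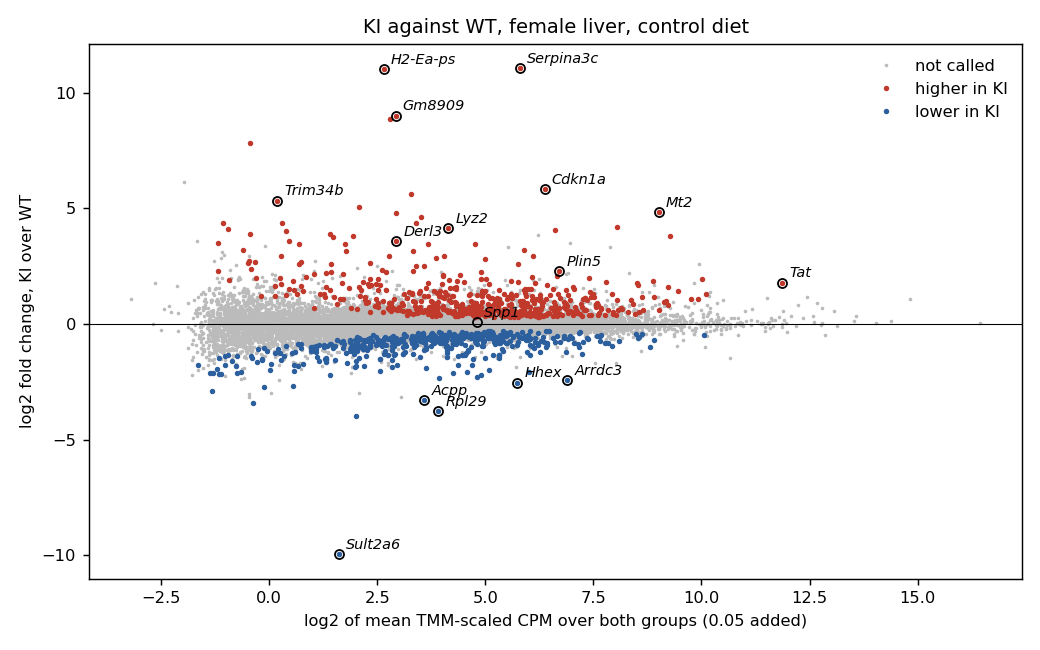
Each point is 1 of the 13315 genes tested in female liver on the control diet, with the log2 of its mean CPM over both groups (0.05 added) on the x axis and the log2 fold change of KI over WT on the y axis. Red points are called genes higher in KI and blue points called genes lower in KI; Mt2 (4.83) and Tat (1.78) are rises among abundant genes, Spp1 lies near 0, and the heights of genes with almost no counts in 1 group, such as Sult2a6, depend on the prior count of the fit.

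Spp1 itself did not pass the test in total liver. It read 26.3, 19.0, 23.3 and 46.6 CPM in KI, against 29.9, 23.4, 31.2 and 24.0 CPM in WT, and the ranges overlapped. The log2 change was 0.08 with a standard error (SE) of 0.284, and the adjusted p was 0.886. In the sorted macrophages of females on the same diet, where the knock-in acts by name, Spp1 read 2.26, 1.70, 1.44 and 2.34 CPM in KI, against 0.0772, 0, 0.134 and 0.191 CPM in WT. Every KI macrophage library was above every WT one, at CPM below those of total liver in a table that was scaled separately. In the liver, Lyz2, the locus that holds the Cre, read 34.1, 31.7, 45.0 and 22.7 CPM in KI, against 1.96, 1.09, 1.96 and 2.48 CPM in WT. The groups lay well apart, with a log2 change of 4.15 (SE 0.934) and an adjusted p of 0.0184, which passed 0.05 no longer without WT replicate 1 or WT replicate 3. Lyz2 also divided libraries of 1 genotype in the side groups. On the NASH diet it read 1.23, 1.17, 62.9 and 38.1 CPM in KI, against 1.29 to 2.19 CPM in WT, and in males on the control diet 25.3, 2.90, 27.5 and 0.504 CPM in KI against 38.4, 65.2 and 76.5 CPM in WT. In the sorted macrophages it read 92.3, 73.6, 93.5 and 2809 CPM in KI, against 168, 2648, 92.6 and 94.3 CPM in WT, with 1 high library in each genotype. Which Lyz2 alleles each animal carried is not given beyond the label of WT.

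Among the receptors of osteopontin, 1 of 9 tested rose, the integrin subunit gene Itgb3, whose protein pairs with the alpha V subunit. Its level was 25.7, 15.5, 14.5 and 17.6 CPM in KI, against 7.42, 6.76, 4.80 and 5.86 CPM in WT. Each KI library lay above every WT library, with a log2 change of 1.56 (SE 0.334) and an adjusted p of 0.016, and the call held in each fit that left out 1 of the 16 female liver libraries. Itgav, which encodes the alpha V subunit itself, read 34.0 to 40.7 CPM in KI, against 31.2 to 39.3 CPM in WT, with a log2 change of 0.04 (adjusted p 0.87). Cd44, the other main receptor, read 9.70 to 22.2 CPM in KI, against 14.4 to 18.3 CPM in WT, with a log2 change of -0.12 (adjusted p 0.815). Itga5, the fibronectin receptor subunit, had every KI value below every WT value, at 14.0 to 21.0 CPM in KI, against 21.6 to 26.0 CPM in WT, and did not pass the test (log2 change -0.41, adjusted p 0.105). Itga4, Itga8, Itga9, Itgb1 and Itgb5 did not pass it either. On the NASH diet Itgb3 read 7.50, 6.77, 7.12 and 5.92 CPM in KI, against 6.34, 7.76, 24.7 and 14.5 CPM in WT, where replicates 3 and 4 were the high libraries. The KI over WT difference of Itgb3 on the NASH diet was lower than that on the control diet by 2.52 on the log2 scale (adjusted p 0.013), and by 1.60 (adjusted p 0.0364) without WT NASH replicates 3 and 4. Between the sexes it was 1.71 higher in females on the log2 scale.

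**Figure D2:**
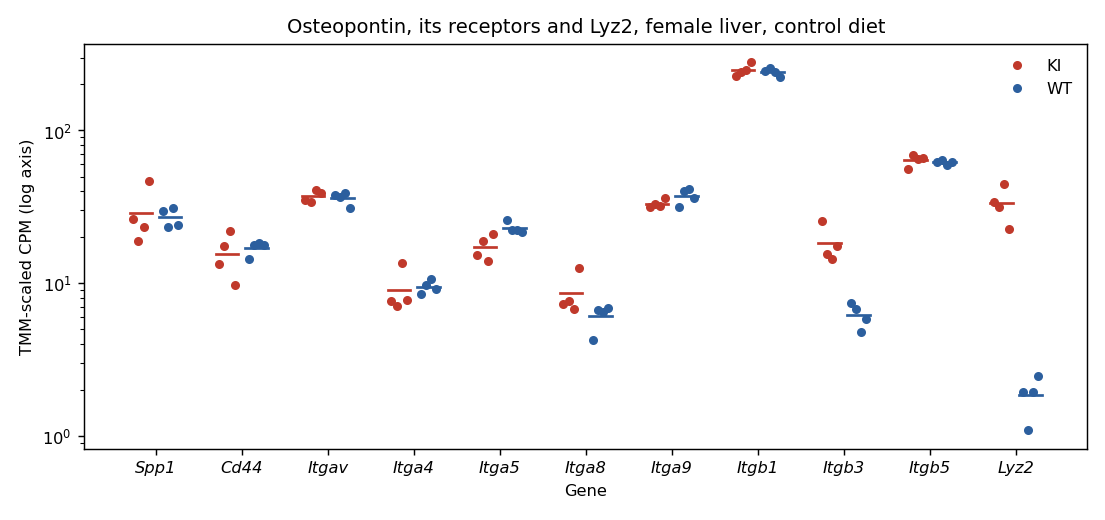
Levels in CPM (log axis) of Spp1, its receptors and Lyz2 in the 4 KI (left) and 4 WT (right) female control livers, 1 point a library with the mean as a line. Spp1 and Cd44 overlap between the genotypes, whereas all KI points of Itgb3 (14.5 to 25.7 CPM) and of Lyz2 (22.7 to 45.0 CPM) lie above all WT points.

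The metallothionein genes were among the largest changes of abundant transcripts. Metallothioneins are small cysteine-rich proteins that bind zinc and copper, and in liver their genes respond to metals, glucocorticoids and interleukin 6. Mt2 read 1317, 801, 849 and 1028 CPM in KI, against 6.44, 48.5, 51.5 and 33.6 CPM in WT, a log2 change of 4.83 (SE 0.923, adjusted p 0.00923). Mt1 read 1589, 936, 982 and 1145 CPM in KI, against 31.3, 108, 97.3 and 92.5 CPM in WT, a log2 change of 3.82 (SE 0.671, adjusted p 0.00591). For both genes the lowest KI library was far above the highest WT library, and both calls held in every fit that left out 1 library. On the NASH diet Mt2 read 78.1, 89.7, 69.3 and 145 CPM in KI, against 137, 15.2, 701 and 965 CPM in WT, where replicates 3 and 4 stood near the KI control livers. The 2 genes lie side by side on chromosome 8, Mt2 at chr8:94172618-94173567 and Mt1 at chr8:94178883-94180327 (GRCm38, the assembly of mm10). The 250 bases before the RefSeq start of Mt2, chr8:94172368-94172617 on the plus strand, are printed because they hold the letters of the metal response element core, in capitals, at 3 places. The motif searched was TGCACNC or TGCGCNC on both strands.
Mt2: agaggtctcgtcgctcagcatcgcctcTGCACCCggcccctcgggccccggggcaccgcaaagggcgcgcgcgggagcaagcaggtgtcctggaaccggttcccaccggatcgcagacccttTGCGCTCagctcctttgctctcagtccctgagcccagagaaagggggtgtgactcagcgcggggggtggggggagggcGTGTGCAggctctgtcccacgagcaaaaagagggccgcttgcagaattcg
In windows of 300 bases around the start (250 before, 50 after), Mt2 had 4 matches and Mt1 had 3. At least 1 match occurred in 25.7% of 32851 RefSeq windows of that length, and 3 or more in 1.97%. A match is a string of letters and was not tested as a site. The bases just after the RefSeq start of Mt2 were not found in its reference transcripts, so that start is uncertain.

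Mt1 and Mt2 belong to a list of 20 genes that respond in liver to fasting and glucocorticoids. Of the 20, 6 (30.0%) rose, against 4.04% of all genes tested, and none fell. The median log2 change of the list was 0.97, against 0.009 over all genes. In 10 of the 20 each KI value was above every WT value, against 8.35% of all genes tested. Tat, the first enzyme of tyrosine breakdown, read 5211, 6016, 5804 and 6097 CPM in KI, against 1750, 2853, 1164 and 960 CPM in WT. The KI libraries were closer to each other than the WT ones, and the log2 change was 1.78 (SE 0.43, adjusted p 0.0234). Sds, serine dehydratase, rose by 1.16 on the log2 scale (adjusted p 0.0164), with 410 to 646 CPM in KI, against 212 to 279 CPM in WT. Ppargc1a, a coactivator that drives gluconeogenic and mitochondrial genes, read 43.0, 70.8, 154 and 88.1 CPM in KI, against 33.7, 32.7, 31.5 and 26.6 CPM in WT (log2 change 1.52, adjusted p 0.0231). Foxo1, the insulin-restrained activator of gluconeogenesis, completes the called members at 0.91 (adjusted p 0.0363) and is named after its values were seen. The gluconeogenic enzyme genes that such regulators act on did not pass. Pck1 read 3834 to 5475 CPM in KI, against 2136 to 5297 CPM in WT (log2 change 0.56, adjusted p 0.375), and G6pc 229 to 745 CPM in KI, against 198 to 711 CPM in WT (0.55, adjusted p 0.521). Igfbp1, a secreted binding protein that insulin represses, read 757, 1644, 2479 and 1884 CPM in KI, against 81.0, 983, 18.2 and 24.3 CPM in WT. WT replicate 2 lay within the KI range, and the adjusted p was 0.19. The count of called members ran from 2, without WT replicate 3, to 9, without WT replicate 2, in fits that left out 1 library. Tat was not called without WT replicate 1, 3 or 4 (adjusted p up to 0.0702), Ppargc1a without these or KI replicate 3 (up to 0.0713), and Sds without WT replicate 3 (0.0508). In 6 of the 20 the KI effect on the NASH diet was lower than that on the control diet, against 2.67% of all genes, and without WT NASH replicates 3 and 4 this held for 3, Mt1, Mt2 and Tat.

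The endoplasmic reticulum stress genes rose unevenly among the KI livers. The unfolded protein response is the program by which cells raise chaperones and degradation factors of the endoplasmic reticulum when proteins fold poorly. In its list 6 of 17 genes (35.3%) rose, against 4.04% of all genes tested, and none fell, with a list median of 0.893. Sdf2l1, a chaperone cofactor, read 9.07, 60.9, 59.4 and 8.62 CPM in KI, against 9.52, 9.52, 7.74 and 4.69 CPM in WT. KI replicates 2 and 3 were high, and KI replicates 1 and 4 lay within the WT range. Derl3, part of the channel that exports misfolded proteins, showed the same split at 1.78, 21.5, 32.2 and 0.400 CPM in KI, against 1.03, 2.24, 0.979 and 0.451 CPM in WT. For Calr, the calcium-binding chaperone calreticulin, values were 916, 1814, 1885 and 606 CPM in KI, against 602, 620, 746 and 499 CPM in WT. The log2 changes were 2.14 for Sdf2l1 (adjusted p 0.0301), 3.58 for Derl3 (adjusted p 0.0388) and 1.08 for Calr (adjusted p 0.0335). Dnajb11, a co-chaperone of BiP, rose by 1.11 (adjusted p 0.0415), and the disulfide isomerase genes Pdia6 and Pdia3, named after their values were seen, rose by 1.04 (adjusted p 0.043) and 0.95 (adjusted p 0.0465). Hspa5, which encodes BiP, read 608, 1220, 1614 and 531 CPM in KI, against 655, 634, 532 and 471 CPM in WT, and did not pass (log2 change 0.79, adjusted p 0.122). Ddit3, the apoptosis-linked transcription factor of the response, read 2.62 to 5.32 CPM in KI, against 4.95 to 7.75 CPM in WT (log2 change -0.61, adjusted p 0.0989). These 6 calls in females rest on a pair of KI libraries: 0 of 17 members were called without KI replicate 2, without KI replicate 3 or without any 1 WT control library, and 11 without KI replicate 1. In male control livers, every KI value of Sdf2l1, Derl3, Calr and Dnajb11 lay above every WT value, although a male WT sample carried Xist. These genes were named for passing in females, and male values of the other listed members are not given here. The share of all genes so separated in males was not counted, so the male values are a description only. Derl3 read 16.7 to 59.8 CPM in male KI, against 1.28 to 3.55 CPM in male WT. Its KI effect in females minus that in males was -0.26 on the log2 scale (adjusted p 0.925 in edgeR's quasi-likelihood test).

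The promoters of the called members Derl3, Calr and Pdia6 are printed because each holds, in capitals, the letters of the endoplasmic reticulum stress element, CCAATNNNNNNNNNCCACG, on either strand. Each run is the 250 bases before the RefSeq start, 5′ to 3′ on the gene's own strand (GRCm38.p6): Derl3 at chr10:75893148-75893397 on plus, Calr at chr8:84846932-84847181 on minus and Pdia6 at chr12:17266339-17266588 on plus.
Derl3: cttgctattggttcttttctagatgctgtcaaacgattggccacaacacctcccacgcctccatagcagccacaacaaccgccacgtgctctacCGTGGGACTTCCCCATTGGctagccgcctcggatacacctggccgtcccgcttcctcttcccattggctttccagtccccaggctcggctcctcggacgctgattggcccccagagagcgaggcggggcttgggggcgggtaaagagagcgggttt
Calr: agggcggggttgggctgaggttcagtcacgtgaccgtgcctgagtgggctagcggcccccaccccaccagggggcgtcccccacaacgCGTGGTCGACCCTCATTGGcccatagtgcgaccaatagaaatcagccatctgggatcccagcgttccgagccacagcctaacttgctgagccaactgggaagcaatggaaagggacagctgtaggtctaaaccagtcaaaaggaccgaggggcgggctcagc
Pdia6: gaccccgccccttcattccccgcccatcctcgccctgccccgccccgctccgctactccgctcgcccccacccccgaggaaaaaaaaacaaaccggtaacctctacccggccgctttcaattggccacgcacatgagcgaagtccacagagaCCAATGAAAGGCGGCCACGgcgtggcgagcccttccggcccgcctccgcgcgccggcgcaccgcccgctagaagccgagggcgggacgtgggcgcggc
In Derl3 and Calr the match reads on the opposite strand and in Pdia6 on the gene's own. Of the 17 listed genes, 15 had a RefSeq window of 300 bases and 7 held the element, 3 of them among the 6 called. Over all 32851 windows, 39 held it (0.119%).

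The perilipin genes Plin5 and Plin4, whose proteins coat lipid droplets, rose. The list of lipid droplet proteins had 3 of 15 members called (20%, against 7.57% of all genes tested), all higher, with a median of 0.031. Plin5, a perilipin that ties droplets to mitochondria, read 168, 115, 138 and 271 CPM in KI, against 35.0, 34.9, 32.3 and 40.1 CPM in WT. Plin4, another perilipin, read 135, 43.3, 126 and 183 CPM in KI, against 23.7, 12.2, 9.79 and 17.9 CPM in WT. Both were higher in every KI library, with log2 changes of 2.28 (SE 0.326, adjusted p 0.00226) and 2.94 (SE 0.485, adjusted p 0.00449), and both were called in every fit that left out 1 library. Abhd5, the activator of the triglyceride lipase ATGL, rose by 0.94 (adjusted p 0.0453), although KI replicate 1, at 18.5 CPM, was below every WT library. Abca1, which exports cholesterol from cells, read 558, 321, 467 and 431 CPM in KI, against 236, 218, 211 and 208 CPM in WT. It rose by 1.02 (adjusted p 0.0161) and was the only called member of 15 in the lipoprotein and efflux list. Of 20 fatty acid synthesis genes, 1 rose (Thrsp, a lipogenic regulator, log2 change 1.30, adjusted p 0.0404), with a list median of 0.831. Fasn, the fatty acid synthase gene, read 797, 5012, 3547 and 6558 CPM in KI, against 2715, 1916, 1042 and 1699 CPM in WT, so that KI replicate 1 lay below every WT library (adjusted p 0.161). Without KI replicate 1 the list had 7 called members, and without KI replicate 2, 3 or 4 it had 0. None of 24 cholesterol synthesis genes passed, with a list median of 0.522, but 13 were called higher without KI replicate 1 (list median 0.836) and 4 in DESeq2. Abhd5 was called in 4 of the 16 fits (adjusted p up to 0.119) and Thrsp in 9 (up to 0.11). Among fits that left out a control diet library, both kept the call only without KI replicate 1. None of 18 mitochondrial fatty acid oxidation genes and none of 28 oxidative phosphorylation genes was called.

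**Figure D3:**
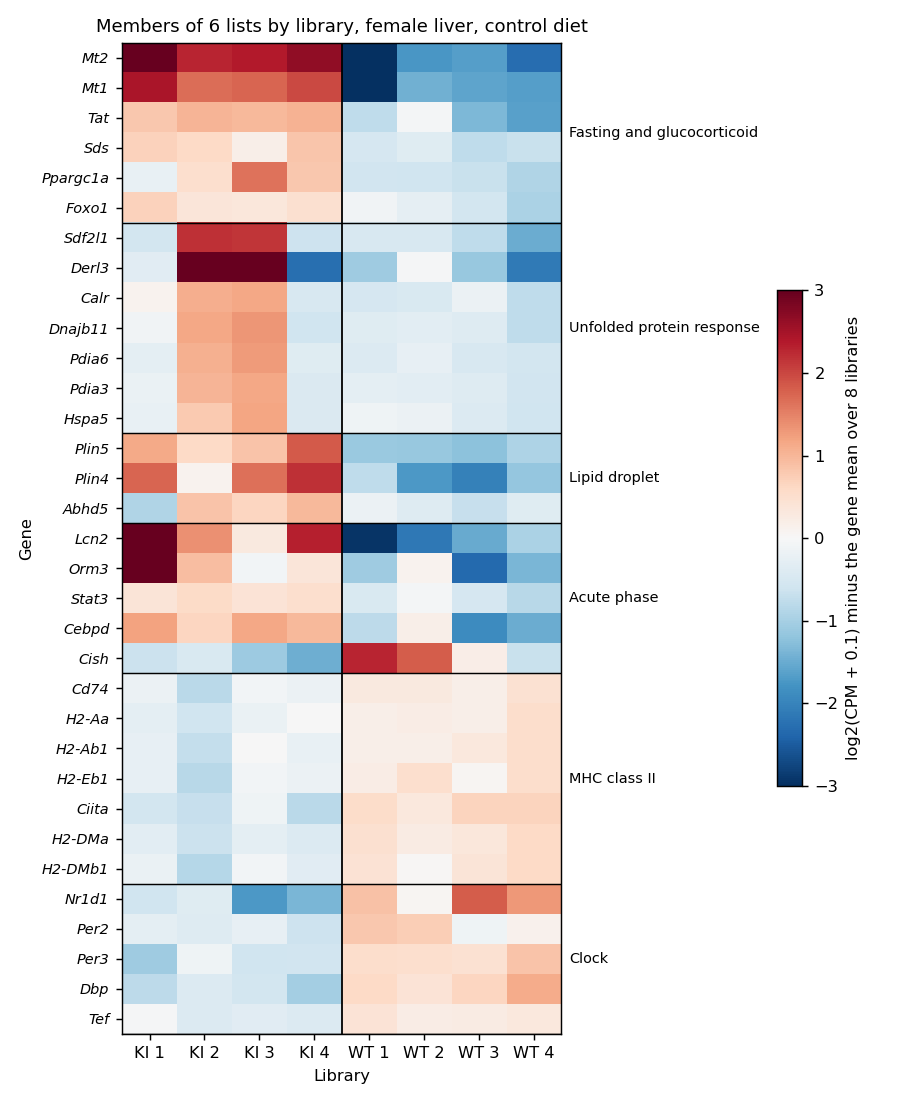
Rows are members of 6 lists, columns the 8 control diet livers (KI left, WT right), and the colour is log2(CPM + 0.1) minus the gene's mean over the 8 libraries, on a scale that ends at 3 in either direction. Fasting genes such as Tat and Mt2 are high in all 4 KI columns, while the unfolded protein response genes are high in KI replicates 2 and 3.

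Cdkn1a was among the 12 largest rises. It encodes the cyclin-dependent kinase inhibitor p21, is a target of p53, and read 224, 61.0, 167 and 196 CPM in KI, against 2.85, 4.85, 1.49 and 2.21 CPM in WT. The lowest KI library was far above the highest WT library, with a log2 change of 5.83 (SE 1.04, adjusted p 0.0063). Gadd45b, a stress-induced growth arrest gene, read 26.7, 11.7, 28.5 and 26.5 CPM in KI, against 1.96, 4.05, 0.792 and 1.71 CPM in WT (log2 change 3.45, adjusted p 0.0171). They were the called members among 15 genes of the p53 and growth arrest list, whose median was 0.732. That was 13.3% of the list, against 7.57% of all genes tested. Gadd45b was not called without WT replicate 1 (adjusted p 0.0512) or WT replicate 3 (0.0529). Other p53 targets did not pass: Mdm2, its feedback inhibitor, read 32.7 to 48.6 CPM in KI, against 24.5 to 36.2 CPM in WT (adjusted p 0.232), and Bax, an apoptosis effector, had an adjusted p of 0.208. Of 22 cell cycle genes, 1 rose, Rrm2, the small subunit of ribonucleotide reductase, at 15, 17.5, 29.0 and 43.3 CPM in KI, against 4.81 to 6.66 CPM in WT. Its log2 change was 2.12 (adjusted p 0.0318), and it was called in 10 of the 16 fits (adjusted p up to 0.0876). Rrm2 lost the call without KI replicate 3 or 4 or WT replicate 1, 2, 3 or 4. Mki67, the proliferation marker, read 4.13 to 16 CPM in KI, against 3.66 to 7.85 CPM in WT and did not pass (adjusted p 0.387).

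Stat3, the transcription factor activated by interleukin 6 and oncostatin M, rose modestly. It read 234, 267, 239 and 255 CPM in KI, against 132, 172, 128 and 102 CPM in WT, a log2 change of 0.90 (adjusted p 0.0465), and was called in 7 of 16 fits that left out 1 library (adjusted p up to 0.116). Among fits that left out a control diet library, Stat3 kept the call only without WT replicate 2. Il6ra, the interleukin 6 receptor, rose by 1.47 (adjusted p 0.0367), with 112 to 266 CPM in KI, against 42.7 to 83.0 CPM in WT. It was called in 10 of the 16 fits (adjusted p up to 0.0975), but not without KI replicate 1, 3 or 4 or WT replicate 1, 3 or 4. The call was also lost with a replicate block. The oncostatin M receptor gene Osmr did not pass (log2 change 0.25, adjusted p 0.519), nor did the shared subunit Il6st (-0.09, adjusted p 0.669). In the list of 20 acute phase and STAT3 target genes, 4 rose and 1 fell, with a list median of 0.522. The share called was 25%, against 7.57% of all genes tested. Lcn2, the siderophore-binding lipocalin, read 419, 92.7, 43.7 and 182 CPM in KI, against 4.62, 8.09, 12.6 and 18.4 CPM in WT (log2 change 4.07, SE 0.98, adjusted p 0.0232). Every KI value was higher, but the KI libraries differed widely from each other, and the call was lost without WT replicate 1, 2 or 3 (adjusted p up to 0.0686). Orm3, an orosomucoid gene with close paralogs, rose too, with 74.1, 12.9, 6.36 and 8.68 CPM in KI, against 3.13, 7.19, 1.26 and 2.53 CPM in WT. KI replicate 1 was far above the rest, and Orm3 was not called without it (adjusted p 0.152) or without WT replicate 1, 3 or 4. Cebpd, an acute phase transcription factor named after its values were seen, rose by 1.80 (adjusted p 0.0465). The serum amyloid gene Saa1 was led by KI replicate 1, at 1293, 224, 45.0 and 161 CPM in KI and 23.5, 17.8, 84.6 and 43.0 CPM in WT, and did not pass (log2 change 3.35, adjusted p 0.0855). Socs3, a feedback inhibitor of STAT3, read 84.0, 33.8, 14.3 and 14.8 CPM in KI, against 19.1, 9.95, 11 and 8.66 CPM in WT (adjusted p 0.301). The member that fell was Cish, a feedback inhibitor of STAT5 that growth hormone induces. It read 12.2, 14.0, 9 and 6.91 CPM in KI, against 94.7, 68.1, 22.0 and 12.1 CPM in WT, a log2 change of -2.22 (adjusted p 0.0227), and KI replicates 1 and 2 lay within the WT range. It was not called without KI replicate 3, KI replicate 4 or WT replicate 1 (adjusted p up to 0.0728).

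Of 18 interferon response genes, 3 rose (16.7%, against 4.04% of all genes tested), with a list median of 0.642. Usp18, which removes ISG15 from proteins and restrains interferon signalling, read 18.9, 28.2, 13.5 and 23.5 CPM in KI, against 7.24, 9.09, 7.32 and 9.60 CPM in WT. All KI values were higher, with a log2 change of 1.34 (adjusted p 0.00591), and the call held in every fit that left out 1 library. Oasl1 and Ifi44 rose by 1.78 (adjusted p 0.0416) and 0.99 (adjusted p 0.0484), led by KI replicate 2 in both, and were called in 9 and 3 of those fits. Both lost the call when any single WT control library was left out. Isg15 did not pass (log2 change 0.66, adjusted p 0.253). None of the 11 tested members of the inflammatory cytokine and NF-kB list was called, with a median of 0.385. Il1b, the interleukin 1 beta gene, read 0.779 to 2.44 CPM in KI, against 2.00 to 10.9 CPM in WT (log2 change -1.88, adjusted p 0.064).

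Marker lists of the immune and stromal cells gave few calls, with the largest shares in the short neutrophil and monocyte lists. Of 14 Kupffer cell genes, which mark the resident macrophages of the liver, 1 fell: Folr2, a folate receptor, at 9.54 to 11.5 CPM in KI, against 14.4 to 20 CPM in WT (log2 change -0.68, adjusted p 0.0113). The summed Kupffer markers were 803 to 1058 CPM in KI, against 887 to 1188 CPM in WT, and the lectin Clec4f had 130 to 138 CPM in KI, against 117 to 183 CPM in WT. None of 13 lipid-associated macrophage genes was called, and Trem2, the lipid receptor that defines these cells, stayed at 0.298 to 1.43 CPM in KI, against 0.419 to 0.607 CPM in WT. Some neutrophil and monocyte markers rose, at low levels. Of 7 neutrophil genes tested, S100a8 and Retnlg rose, by 2.27 (adjusted p 0.0438) and 2.68 (adjusted p 0.043), and the list sum was 13.02 to 56.7 CPM in KI, against 8.48 to 19.2 CPM in WT. That was 28.6% of the list, against 4.04% of all genes tested, with a list median of 1.92. No tested neutrophil gene had every KI value above every WT value. The defining neutrophil genes Ly6g, Camp, Elane and Mpo were too low to be tested. Of 9 monocyte genes, Ly6c2 and Plac8 rose, by 1.21 (adjusted p 0.0371) and 0.73 (adjusted p 0.0433), with a list sum of 20.5 to 29.4 CPM in KI, against 15.2 to 21.8 CPM in WT. The share called in the monocyte list was 22.2%, and its median was 0.484. Each of these 4 calls was lost without KI replicate 2, 3 or 4, and without WT replicate 1 or 3. The part of these cells in the other results was not tested. None of the 12 T and NK cell, 8 dendritic cell, 14 stellate cell and 10 bile duct cell genes tested was called.

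Antigen presentation genes of MHC class II, carried by B cells, dendritic cells and macrophages, lay lower in KI for most members, mostly short of the threshold. In 7 of 9 tested members every KI value lay below every WT value, against 8.11% of all genes tested. The list median was -0.59, and the summed level was 123.6 to 195.0 CPM in KI, against 239.0 to 293.2 CPM in WT. The only member to pass was H2-DMa, a peptide-loading subunit, which fell by 0.84 on the log2 scale (adjusted p 0.032). The count of 1 was not stable: 6 of the 9 fell in a fit of the 8 libraries alone, 3 in DESeq2 and 0 in the fit with a replicate block. Ciita, the master activator of class II genes, read 1.39, 1.25, 1.89 and 1.14 CPM in KI, against 3.08, 2.62, 3.36 and 3.38 CPM in WT, and missed the threshold (log2 change -1.13, adjusted p 0.0664). H2-Ab1, a class II beta chain, read 26.5 to 43.0 CPM in KI, against 49.0 to 63.2 CPM in WT (log2 change -0.59, adjusted p 0.164). Outside the class II list, the chemokine receptor gene Cxcr6 fell by 1.25 on the log2 scale (adjusted p 0.0317). Of 20 tested chemokine and receptor genes, 2 fell and none rose (10% called, against 7.57% of all genes tested). H2-DMa was called in 10 and Cxcr6 in 11 of the 16 fits. H2-DMa lost the call without KI replicate 2, 3 or 4 or WT replicate 1, 3 or 4. Cxcr6 lost it without KI replicate 2 or 4 or WT replicate 2, 3 or 4, and also with a replicate block and with the 8 libraries alone. The 6 B and plasma cell genes summed to 4.17 to 17.6 CPM in KI, against 10.2 to 16.1 CPM in WT. In 4 of the 6 every KI value lay below every WT value, against 8.11% of all genes tested. The part of B and plasma cells in the class II result was not tested.

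**Figure D4:**
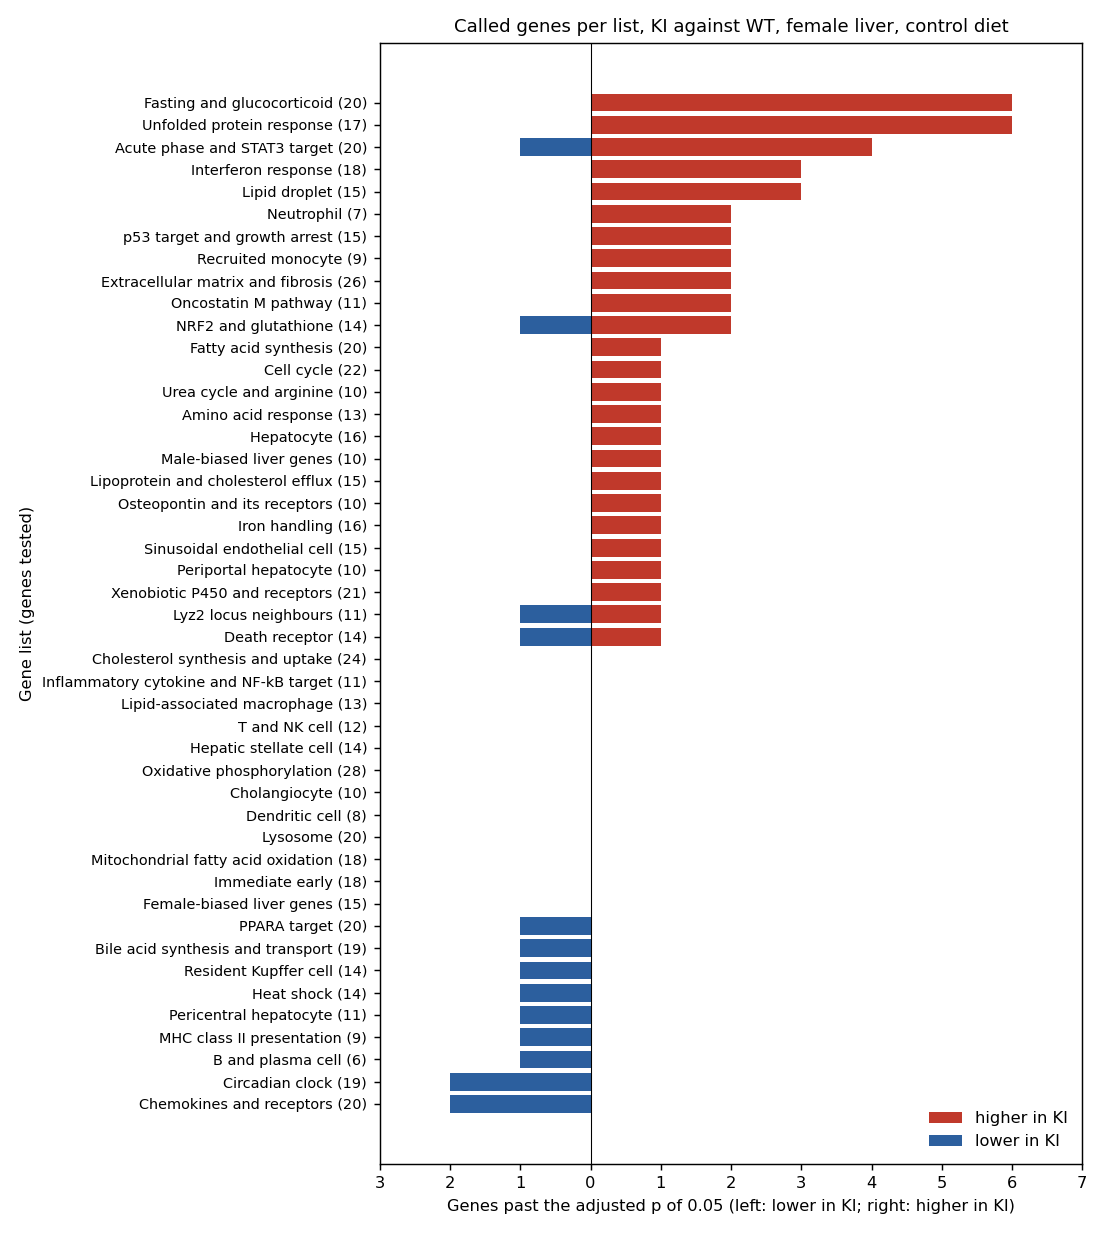
Bars count the called genes of each list in female control liver, red to the right for higher and blue to the left for lower in KI, with the number of genes tested after the name of the list; lists with fewer than 5 tested genes are not shown. The fasting and the unfolded protein response lists have the longest bars, 6 called genes each, and the chemokine and clock lists have 2 lower genes each.

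Calls among the hepatocyte and vessel markers were mostly of single genes. Of 16 general hepatocyte genes tested, 1 rose, Tat, with a list median of 0.319. In 6 of the 16 every KI value lay above every WT value, against 8.35% of all genes tested. Lyve1, a hyaluronan receptor of the sinusoidal lining, read 36.5, 25.1, 37.0 and 28.7 CPM in KI, against 9.76, 9.61, 8.39 and 7.62 CPM in WT. The groups lay far apart, with a log2 change of 1.85 (SE 0.246, adjusted p 0.00178), and none of the other 14 sinusoidal endothelial genes was called. Lgr5, a receptor that strengthens Wnt signalling around the central vein, read 2.84, 3.28, 3.18 and 2.80 CPM in KI, against 7.38, 7.66, 13.1 and 6.90 CPM in WT. It fell by 1.53 on the log2 scale (adjusted p 0.0046), as the only called gene of 11 pericentral markers, whose median was -0.484. Sp5, another Wnt target, fell by 2.68 (adjusted p 0.0341), whereas Axin2 did not pass (log2 change -1.16, adjusted p 0.11) and Glul, the central vein glutamine synthetase, had a change of -0.08 (adjusted p 0.811). The basement membrane collagen genes Col4a1 and Col4a2, neighbours on chromosome 8, rose by 0.83 (adjusted p 0.0274) and 0.72 (adjusted p 0.0235), and were the called members among 26 matrix genes. The fibrillar collagen gene Col1a1 read 2.89 to 13.7 CPM in KI, against 2.56 to 8.85 CPM in WT (adjusted p 0.53). Col4a1 and Col4a2 were each called in 11 of the 16 fits, and Sp5 in 10. Each of these losses came with a control diet library left out. Arg2, the mitochondrial arginase, rose by 2.57 (adjusted p 0.0171, and 0.0508 without WT replicate 3), with 1.83 to 3.58 CPM in KI, against 0.225 to 0.666 CPM in WT. Nfe2l2, which encodes the antioxidant regulator NRF2, fell by 0.80 on the log2 scale (adjusted p 0.0161), at 53.4 to 67.1 CPM in KI, against 97.6 to 110 CPM in WT. Its targets Gsr and Srxn1 rose, by 0.43 (adjusted p 0.0353) and 0.90 (adjusted p 0.0466), 2 of the 14 genes tested in that list, and were called in 9 and 7 of the 16 fits. With a control diet library left out, Gsr kept the call only without KI replicate 1. Srxn1 kept it only without KI replicate 1 or 2.

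The circadian clock repressor genes Nr1d1 and Per2 fell in KI. The time of tissue collection is not given in the labels. Of 19 tested clock genes, 2 fell and none rose (list median -0.148). The share called was 10.5%, near the 7.57% of all genes tested. With the 8 control diet libraries alone, and in DESeq2, 6 fell and 1 rose. In 7 of the 19 every KI value lay below every WT value, against 8.11% of all genes tested. Nr1d1, the repressor REV-ERB alpha, read 30.4, 36.2, 14.0 and 18.0 CPM in KI, against 85.2, 48.0, 165 and 115 CPM in WT, a log2 change of -2.06 (adjusted p 0.048). Per2, a period gene, read 52.1 to 68.4 CPM in KI, against 73.6 to 141 CPM in WT, a change of -0.82 (adjusted p 0.0297). Dbp, a clock output factor named after its values were seen, read 55.6 to 86.0 CPM in KI, against 151 to 247 CPM in WT, with a change of -1.39 that missed the threshold (adjusted p 0.0577). Of the activators, Clock read 25.1 to 27.2 CPM in KI, against 24.2 to 38.3 CPM in WT (adjusted p 0.618), and Arntl had a change of 0.64 (adjusted p 0.409). Nr1d1 was called in 4 of the 16 fits (adjusted p up to 0.126) and Per2 in 11 (up to 0.0934). Per2 lost the call without KI replicate 2, 3 or 4 or WT replicate 1 or 2. The heat shock co-chaperone gene Dnajb1 fell by 1.13 on the log2 scale (adjusted p 0.0315) as 1 of 14 heat shock genes. It was called in 11 of the 16 fits, but not without KI replicate 2, 3 or 4 or WT replicate 1 or 2. The call was also lost with a replicate block and with the 8 control diet libraries alone. None of 18 immediate early genes was called.

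A further set of genes was present in 1 genotype and nearly absent in the other. Serpina3c, a serine protease inhibitor gene at chr12:104146907-104153929, read 102, 146, 157 and 41.9 CPM in KI, against 0.0467, 0, 0.0932 and 0.0451 CPM in WT. On the NASH diet KI replicate 4, at 0.161 CPM, lay within the WT range, while the other 3 KI libraries read 27.9 to 61.3 CPM. H2-Ea-ps, a class II pseudogene at chr17:34341952-34344645, read 21.3, 6.99, 12.3 and 9.25 CPM in KI and 0 in all 4 WT libraries. Its summed count was 937 in KI and 0 in WT, at least 352-fold higher when 3 counts over the WT group are taken as the floor. Gm8909, a class I-like gene at chr17:36143812-36168602, had 1133 counts in KI and 2 in WT, a ratio of 638.5 with a counting interval of 176.4 to 5279. Gm11127, in the same region at chr17:36055816-36058371, had 1040 counts in KI and 2 in WT (ratio 586.1, interval 161.8 to 4846). In the opposite direction, Sult2a6, a sulfotransferase gene at chr7:14222403-14254870, had 0 counts in KI and 519 in WT, at least 153.5-fold lower in KI. The intervals are 95% and exact, and like the floors they cover counting error only. Some genes named here have near-identical relatives, so how the authors' counting split reads among copies is uncertain for them. They are Serpina3c, Serpina3h, Gm8909, Gm11127, Sult2a6, Trim34b and Rpl29.

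The same on and off pattern divided libraries elsewhere in the series. H2-Ea-ps read 0, 12.2, 18.7 and 20.9 CPM in KI NASH livers and 0 in all WT NASH livers. In males it read 13.2, 28.9, 0.202 and 5.77 CPM in KI and 6.98, 0.0573 and 0.0634 CPM in WT, so that single libraries of both genotypes carried it. Sult2a6 read 0 to 0.0535 CPM in KI NASH and 9.79 to 18.3 CPM in WT NASH livers, and 0 in every male liver. Of the 86 large changes, 13 went the same way beyond a log2 change of 2 on the NASH diet, among them Lyz2, Serpina3c, Serpina1e, H2-Ea-ps, Gm8909, Gm11127, Trim34b and Sult2a6, while 54 had the opposite sign there. Without WT NASH replicates 3 and 4 these counts were 21 and 21.

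Several of these genes are neighbours, and 3 windows around them were chosen after their values were seen. Genes that prompted each window are counted in it, except Gm8909, which lies past the class I window. The counts therefore cannot measure clustering. Over all genes tested, 4.04% rose and 3.53% fell. In the Serpina cluster, from Serpina1e to Serpina3i (chr12:103946931-104269509), 5 of 10 tested genes rose and none fell. Serpina1e, an alpha-1 antitrypsin gene taken from the list of male-biased genes, read 414, 657, 589 and 336 CPM in KI, against 5.88, 13.3, 40.6 and 49.9 CPM in WT (log2 change 4.19, adjusted p 0.0194, and 0.0523 without WT replicate 1). Serpina3f and Serpina3g, which lie among the risen genes, did not pass, with changes of -0.89 and -0.12. In the Trim cluster, from Trim6 to Trim34b (chr7:104218795-104336617), 2 of 5 rose and 1 fell. Trim34b, an interferon-inducible ubiquitin ligase gene, had a log2 change of 5.34 (adjusted p 0.00122), Trim6 of 3.75 (adjusted p 0.00226) and Trim34a of -1.83 (adjusted p 0.0345), so that near copies moved in opposite directions. In the class I region, from H2-T24 to H2-T10 (chr17:36003471-36121444), 4 of 7 rose and none fell, and H2-T23, the Qa-1 gene among them, had a change of 0.08 (adjusted p 0.70). Around Lyz2, at chr10:117277541-117282272, a list of 11 tested genes of that locus gave 1 further call, Cpsf6, a polyadenylation factor gene that fell by 0.58 on the log2 scale (adjusted p 0.00969).

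**Figure D5:**
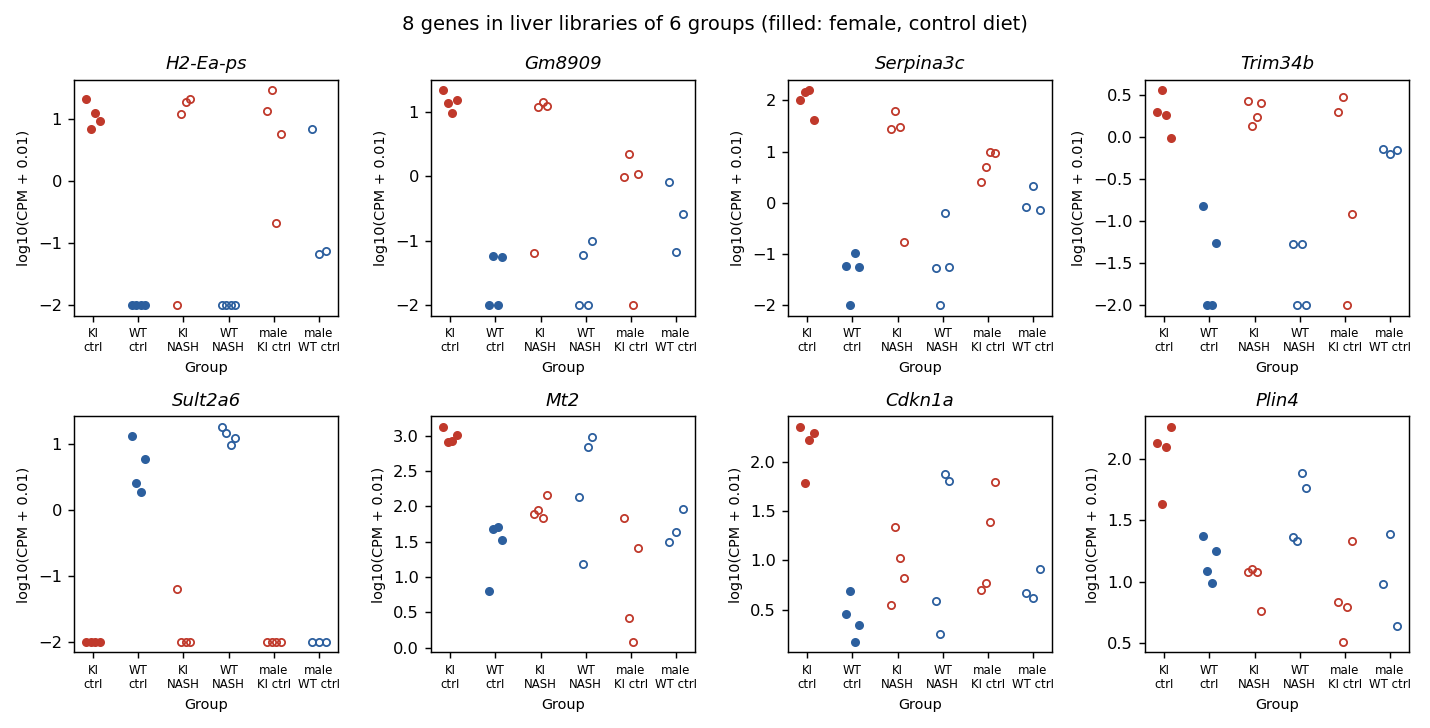
Levels of 8 genes, as log10(CPM + 0.01), in KI (red) and WT (blue) livers of females on the control diet, females on the NASH diet and males on the control diet, 1 point a library, with KI left of WT in each pair. Sult2a6 and Trim34b keep the KI and WT female livers apart on both diets, whereas Mt2 and Cdkn1a in WT NASH replicates 3 and 4 (701 and 965 CPM of Mt2) reach toward the KI control livers.

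The other named rises and falls were single genes of varied function. Cyp2b10, the phenobarbital-responsive P450 gene and a member of a family of close paralogs, rose by 4.63 (adjusted p 0.00559), with 5.35 to 37.2 CPM in KI, against 0.316 to 1.49 CPM in WT. Hhex, a homeobox factor of liver development, read 20, 12.9, 13.2 and 16.4 CPM in KI, against 177, 79.8, 62.3 and 44.6 CPM in WT, and fell by 2.54 on the log2 scale (adjusted p 0.0151). Arrdc3, an arrestin-like adaptor gene, read 25.5 to 45.7 CPM in KI, against 137 to 270 CPM in WT, and fell by 2.43 on the log2 scale (adjusted p 0.0131). Rpl29, a ribosomal protein gene with many pseudogenes, read 1.73, 2.65, 1.34 and 2.40 CPM in KI, against 31.3, 34.6, 18.1 and 27.9 CPM in WT (log2 change -3.78, SE 0.579, adjusted p 0.00331). In the macrophages of the same genotypes Rpl29 read 11.2, 12.2, 117 and 106 CPM in KI, against 60.0 to 119 CPM in WT, so that KI libraries divided there. The smallest p-values came from tightly grouped genes of moderate change. Ulk1, the kinase that starts autophagy, read 257, 243, 260 and 255 CPM in KI, against 106, 126, 122 and 101 CPM in WT, a log2 change of 1.16 (SE 0.135, adjusted p 0.00109). Psmd14, a deubiquitinase of the proteasome lid, read 46.5 to 49.6 CPM in KI, against 28.8 to 31.0 CPM in WT, a change of 0.69 (adjusted p 0.00178). Dcun1d2, a cullin neddylation factor gene, fell by 1.01 on the log2 scale (SE 0.105, adjusted p 0.00076), with 7.51 to 9.07 CPM in KI, against 14.6 to 17.8 CPM in WT. Mapkapk3, a stress kinase gene, fell by 1.84 on the log2 scale (adjusted p 0.00109). Of 82 called genes named by the rule, 35 were called in all 16 fits that each left out 1 library, among them Itgb3, Mt1, Mt2, Cdkn1a, Plin5, Plin4, Abca1, Lyve1, Lgr5, Usp18 and Ulk1. The other 47 lost the call in at least 1, and among the 8 control diet libraries most often without WT replicate 3 (41 genes) or WT replicate 1 (39 genes) and least often without KI replicate 1 (10 genes).

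The difference between KI and WT depended on the diet. On the NASH diet, 12 of the same 13315 genes differed between KI and WT (0.0901%), 9 higher (0.0676%) and 3 lower (0.0225%), with 1728 at an unadjusted p under 0.05, against 3345 on the control diet. Without WT NASH replicates 3 and 4, 1 gene was called on the NASH diet and 1359 had an unadjusted p under 0.05. The test of the difference itself, the KI effect on the NASH diet minus that on the control diet, called 635 genes (4.77%), of which 280 (2.1%) were more positive and 355 (2.67%) more negative on the NASH diet. Without WT NASH replicates 3 and 4, which also leaves fewer libraries, 73 genes were called, 69 of them shared with the 635. The effect on Cdkn1a was lower on the NASH diet, with a difference of -7.58 on the log2 scale, and of -3.92 (adjusted p 0.0585) without the pair, in which Cdkn1a read 74.8 and 63.8 CPM against 3.88 and 1.77 CPM in the other WT NASH livers. The difference for Mt2 was -7.08 with all libraries and -4.50 (adjusted p 0.0484) without the pair. Without it the test was also passed by Cyp2b10, at -6.78 (adjusted p 0.0232), and by Arrdc3, at 3.26 (adjusted p 0.0406), whose differences with all libraries were -7.38 and 3.78. These contrasts share the WT and KI control libraries with the main comparison.

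The effect of KI on the control diet also differed between the sexes. In a joint fit of 13415 genes, 962 (7.17%) had an effect in females that differed from that in males, 451 higher (3.36%) and 511 lower (3.81%). In males 925 (6.90%) were called, 3.29% of those tested being higher in KI and 3.6% lower. Without the male WT sample that carried Xist, 921 were called, 555 of them shared with the 925. In males the ranges of Mt2 overlapped. It read 69.0, 2.62, 1.21 and 25.9 CPM in KI, against 31.3, 43.0 and 93.0 CPM in WT, and the female effect was 6.01 higher on the log2 scale (adjusted p 0.0139). Lyz2, at 6.24, and Serpina3c, at 8.64, also had a higher effect in females. This contrast shares the female control libraries with the main comparison. Sex here is confounded with the count table, since male and female livers came in separate tables with 23839 and 24982 gene rows, and a male WT sample carried Xist. Without that sample 1306 genes differed between the sexes in effect.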

How the data were processed

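Poly(A) RNA of total liver had been sequenced from TruSeq Stranded mRNA libraries, per the labels' protocols. The authors deposited raw counts per gene symbol, whole numbers, 1 table for female liver, 1 for male liver and 1 for macrophages; the genome build was mm10, per the submitters' processing notes. Not given in the sources used here are the aligner, counter, annotation and strand handling; overlapping, antisense and near-identical genes are therefore uncertain. The 16 female livers were fitted with edgeR 4.0.16 in R 4.3.3: TMM scaling, filterByExpr (minimum count 10, total 15), 1 mean per group of genotype and diet, quasi-likelihood tests, and p-values adjusted by Benjamini-Hochberg across all 13315 genes that passed, called under 0.05. KI was compared with WT on the control diet. The difference of that effect between diets, and between sexes in a joint fit, was also tested. CPM are TMM-scaled, and SE are those of the fit.

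Named genes were fixed genes of the osteopontin pathway, the 12 largest rises and 12 largest falls among called genes with at least 1 CPM in the higher group, the 8 smallest p-values, and up to 4 genes from each of 49 lists; other members of the lists given with values, and genes marked so, were chosen after their values were seen. The members and lists were chosen with earlier results of these data known. Alternatives were RLE scaling, no filter, DESeq2 1.42.0, the 8 libraries alone, a replicate block and leaving out single libraries. Promoters and gene positions are from RefSeq, GRCm38.p6. The fit was tested on simulated counts. The total counts are alike between the groups, and the spread between libraries and not counting limits most genes; for genes near 0 the intervals are given. Results of a few genes are not reported here.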

Additional observations from a re-analysis of the deposited data

Results flagged for a closer look

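Values of 1 library far from the other 3 of its group occurred in 16 of the 248 groups of 4 libraries examined (124 named genes in KI and in WT), 6.45%, where chance gives about 1 in 20. In KI they were Itga4 at 13.6 CPM in replicate 3, Itga8 at 12.7 CPM in replicate 4, Gm1966 at 1.54 CPM in replicate 4, Cyp46a1 at 6.18 CPM in replicate 1, Orm3 at 74.1 CPM in replicate 1, Gadd45b at 11.7 CPM in replicate 2 and Srxn1 at 79.7 CPM in replicate 4. In WT they were Cd44 at 14.4 CPM in replicate 1, Lgr5 at 13.1 CPM in replicate 3, and 4 genes in replicate 2: Fam107a at 1.19 CPM, 4931408D14Rik at 64.0 CPM, Ddit4 at 37.7 CPM and Egr2 at 3.28 CPM. WT replicate 4 gave Cpt1a at 1040 CPM, Gm11127 at 0.0902 CPM and Dnajb11 at 54.2 CPM.

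The KI effect on the NASH diet differed from that on the control diet in 635 genes (4.77% of those tested). Genes named by size of change or smallest p were picked from the control diet comparison, whose libraries also enter this difference. Calls among them are therefore favoured by that choice and are no separate evidence. Among the 48 genes named as osteopontin pathway genes, by size of change or by smallest p, 16 were called, with differences (NASH minus control, log2) of -2.52 for Itgb3, -1.46 for Osmr, -10.42 for Tekt4, -7.58 for Cdkn1a, -10.08 for Fam107a, -7.08 for Mt2, -7.38 for Cyp2b10, -0.90 for Ulk1, -1.21 for Anks1 and -0.90 for Psmd14. The positive differences were 3.12 for Rpl29, 2.93 for Hhex, 3.78 for Arrdc3, 1.78 for 4931408D14Rik, 1.02 for Dcun1d2 and 1.18 for Mapkapk3. Without WT NASH replicates 3 and 4, the calls remained for Itgb3, Mt2, Cyp2b10, Arrdc3, Dcun1d2, Anks1 and Psmd14. For the other 9 the call ended, while the differences moved to varied extents, to -3.92 for Cdkn1a, 2.90 for Rpl29 and 1.17 for Mapkapk3.

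The KI effect on the control diet differed between female and male liver in 962 genes (7.17% of those tested). The female control libraries, from which genes were named by size of change or smallest p, enter this difference too. Calls among those genes are likewise favoured by that choice. Among the same 48 genes 14 were called, with differences (female minus male, log2) of 1.71 for Itgb3, 6.24 for Lyz2, 8.64 for Serpina3c, 7.38 for Gm8909, 10.42 for Tekt4, 5.91 for Fam107a, 6.01 for Mt2, 4.94 for Cyp2b10, 1.34 for Ulk1 and 1.26 for Anks1. The negative differences were -3.18 for Rpl29, -3.14 for Hhex, -1.14 for Dcun1d2 and -1.91 for Zfp950. For Cyp2b10 the difference was -1.15 (adjusted p 0.85 in edgeR's quasi-likelihood test) without the male WT sample that carried Xist, and for the other 13 the call remained without it. Sex and count table cannot be told apart.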

How the results depend on the processing

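The count of 1008 genes called between KI and WT on the control diet was 1007 with RLE scaling, 865 with no filter on low counts, 784 with the replicate number as a block, 1018 when the 8 control diet libraries were fitted alone (754 genes shared), 1630 with DESeq2 and 1644 without WT NASH replicates 3 and 4, the last chosen after seeing the data. Leaving out 1 library gave 393 (WT replicate 1) to 1179 (WT NASH replicate 3). The 635 genes whose KI effect differed between diets became 645 with RLE scaling, 558 with no filter, 464 with the block, 1253 with DESeq2, 73 without WT NASH replicates 3 and 4, and 254 to 1198 when 1 library was left out. The 962 genes whose KI effect differed between sexes became 966 with RLE scaling, 739 with no filter, 829 with the block, 1437 with DESeq2, 1306 without the male WT sample merged from replicates 3 and 4, and 489 to 1073 when 1 library was left out. The cause of these shifts was not tested. Correlations of deviations between KI and WT libraries of the same number, 1 to 4, were -0.083, -0.082, 0.006 and 0.132. Those between unlike numbers ran from -0.205 to 0.129. With 4 libraries in a group, these values cannot decide whether replicate numbers pair libraries. Of the 82 called named genes, 23 lost the call under the block, H2-Ea-ps among them, 18 with the 8 libraries alone, 2 with no filter, and 0 with DESeq2 or RLE scaling; 0 changed sign. The unfolded protein response count of 6 was 0 with the 8 libraries alone, 1 under the block and 9 with DESeq2, and the fasting count of 6 was 9, 5 and 10. Leaving out KI replicate 4 moved the share of calls that were higher in KI to 63.8%, against 53.4% as reported. Depth was similar in all 8 libraries, and genes under about 1 CPM rest on few counts.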

Other observations

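Gene lists not described above gave single calls or none in female control liver. Of 20 PPARA targets, Vnn1, a pantetheinase gene, fell by 1.19 on the log2 scale (adjusted p 0.0395 in edgeR's quasi-likelihood test), with 21.5 to 78.2 CPM in KI, against 63.0 to 161 CPM in WT. It was called in 10 of the 16 fits that left out 1 library (adjusted p up to 0.114 in edgeR's quasi-likelihood test), and neither with a replicate block nor with the 8 control diet libraries alone. Of 19 bile acid genes, Slco1b2, a hepatocyte uptake transporter, fell by 0.47 on the log2 scale (adjusted p 0.0345), at 784 to 1078 CPM in KI, against 1148 to 1381 CPM in WT, and was called in 9 of those fits. Among these fits, every loss of Vnn1 and Slco1b2 came with a control diet library left out. None of 15 female-biased liver genes was called, with a list median of -0.246, and Serpina1e was the only call among 10 male-biased genes. None of 20 lysosome genes was called.

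The summed levels of some lists spread more among the KI livers than among the WT livers. Fatty acid synthesis genes summed to 37875 to 98705 CPM in KI, against 20930 to 38264 CPM in WT, and cholesterol synthesis genes to 2315 to 7576 CPM in KI, against 3460 to 4573 CPM in WT. The unfolded protein response genes summed to 4465 to 11678 CPM in KI, against 3640 to 5028 CPM in WT. KI replicate 1 was lowest in Fasn and highest in Saa1, Lcn2 and Socs3, while KI replicates 2 and 3 were highest in Derl3 and Calr.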
